A study of Drosophila melanogaster with 3 samples.

Results

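The genes described here encode the immune recognition, signalling and antimicrobial effector proteins of Drosophila melanogaster, as measured in larval salivary glands. They were chosen by name and not by their values: 12 peptidoglycan recognition proteins (PGRPs), 7 genes of the Toll pathway, 3 genes of the Imd pathway and 17 antimicrobial peptide genes. All 39 were found by symbol among the 17278 genes of the deposited table. The study profiled poly(A) RNA of salivary glands dissected from L3 larvae kept at 25 °C, with 50 glands in each sample. There was 1 group, control glands, with 3 libraries named replicates 1, 2 and 3. The titles give the stock as oregon wt and the genotype field gives yw, a difference that the labels do not settle. No infected, treated or mutant glands were compared here, so the values describe how much of each transcript these glands held and how far the libraries differed. The labels do not tell whether separate cultures or animals gave the 3 samples, and the differences between libraries may be technical.

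Insects have no antibodies and rely on receptors that recognise parts of the microbial cell wall. In the fly, PGRPs bind peptidoglycan. Peptidoglycan of the lysine type mainly leads to cleavage of the ligand Spätzle, which activates the receptor Toll, whereas the DAP type acts through PGRP-LC or PGRP-LE on the adaptor Imd. Both routes end in NF-κB factors (Dorsal and Dif for Toll, Relish for Imd) that switch on antimicrobial peptide genes, chiefly in the fat body after infection and locally in some epithelia. Toll and Dorsal also pattern the early embryo. Amidases of the PGRP family cut peptidoglycan and dampen the response.

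The deposited unit is FPKM. Nearly all values equalled a gene's fragments divided by its length and by 1 divisor per library. The divisors were 499875, 727436 and 945562 in replicates 1, 2 and 3. They lie below the fragments outside rRNA pseudogenes, and how the authors set them is not given. The libraries are shallow, with 678714, 874004 and 1185541 fragments outside rRNA pseudogenes in replicates 1, 2 and 3, and rRNA pseudogenes held 55.0%, 41.4% and 24.6% of all recovered fragments. Glue genes dominated the marker levels. The 11 gland markers, glue genes among them, summed to 1021740, 764231 and 867514 FPKM, and all were above 1 FPKM in every library. The gland markers sage, Pgant9, CrebA and fkh averaged 723, 243, 127 and 64.1 FPKM, below the fat body marker Fbp1 at 926 FPKM. The 10 fat body markers summed to 2903, 4129 and 4319 FPKM, led by Fbp1 and Lsp1gamma, and none was listed at 0 in every library. They were not evenly high. The markers apolpp, Lpin, FASN1 and Apoltp averaged 20.0, 6.91, 4.20 and 0.706 FPKM. Lsp2, at 80.8 FPKM, shares 84.6% of its exon bases with other annotated genes. The 12 hemocyte markers summed to 22.1, 50.0 and 31.7 FPKM, led by crq at 16.8 ± 8.68 and Col4a1 at 5.98 ± 2.94 (SD, n = 3). Of these 12, 4 had at least 1 FPKM in every library, with vkg (2.51 ± 0.881) and srp (1.77 ± 0.653) as the lower ones. Hml (0.817 ± 0.103), with 5, 6 and 10 fragments, and NimC1 (0.663 ± 0.277) were among those below 1 FPKM on average. The 10 midgut markers summed to 3.57, 1.20 and 1.22 FPKM, with 5 of them listed at 0, and their highest, Jon99Cii and Amy-d, rested on 1 fragment each. The 7 tracheal markers summed to 33.6, 34.7 and 21.6 FPKM, led by Gasp and pio. The 7 muscle markers summed to 30.8, 31.2 and 55.7 FPKM, led by TpnC73F and Act57B.

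Most recognition and signalling genes had transcripts in every library, whereas most antimicrobial peptide genes were not found in all of them. A gene was called detected where each library had at least 1 FPKM. Of the 39 members, 20 (51.3%) were detected, against 33.1% of all genes in the table and 40.1% of the protein-coding genes. The detected members were 8 of the 12 PGRP genes, 5 of the 7 Toll pathway genes, all 3 Imd pathway genes and 4 of the 17 antimicrobial peptide genes (23.5%). For the short peptide genes 1 fragment is worth more than 1 FPKM, so this limit asks for a fragment in each library, and 12 of the 17 had a fragment in at least 1 library. A further 6 members were listed at 0 in every library, against 41.5% of all genes and 32.3% of the protein-coding genes. These were PGRP-SC1b, CecB, Mtk, BomS1, BomS2 and BomS3. The 5 peptide genes among them are 29.4% of that group, near the share of protein-coding genes. The median member level was 2.08 on the log2(FPKM + 1) scale, against 0.37 for all genes and 0.73 for protein-coding genes. By group, the median was 3.01 for the PGRP genes, 2.14 for Toll, 4.39 for Imd and 0.91 for the antimicrobial peptide genes, where it was 0.0 without replicate 1. The smallest genes give the least precise values. Antimicrobial peptide genes span 268 to 900 exon bases, and 1 fragment of Mtk would equal 7.46, 5.13 and 3.95 FPKM in replicates 1, 2 and 3.

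**Figure D1:**
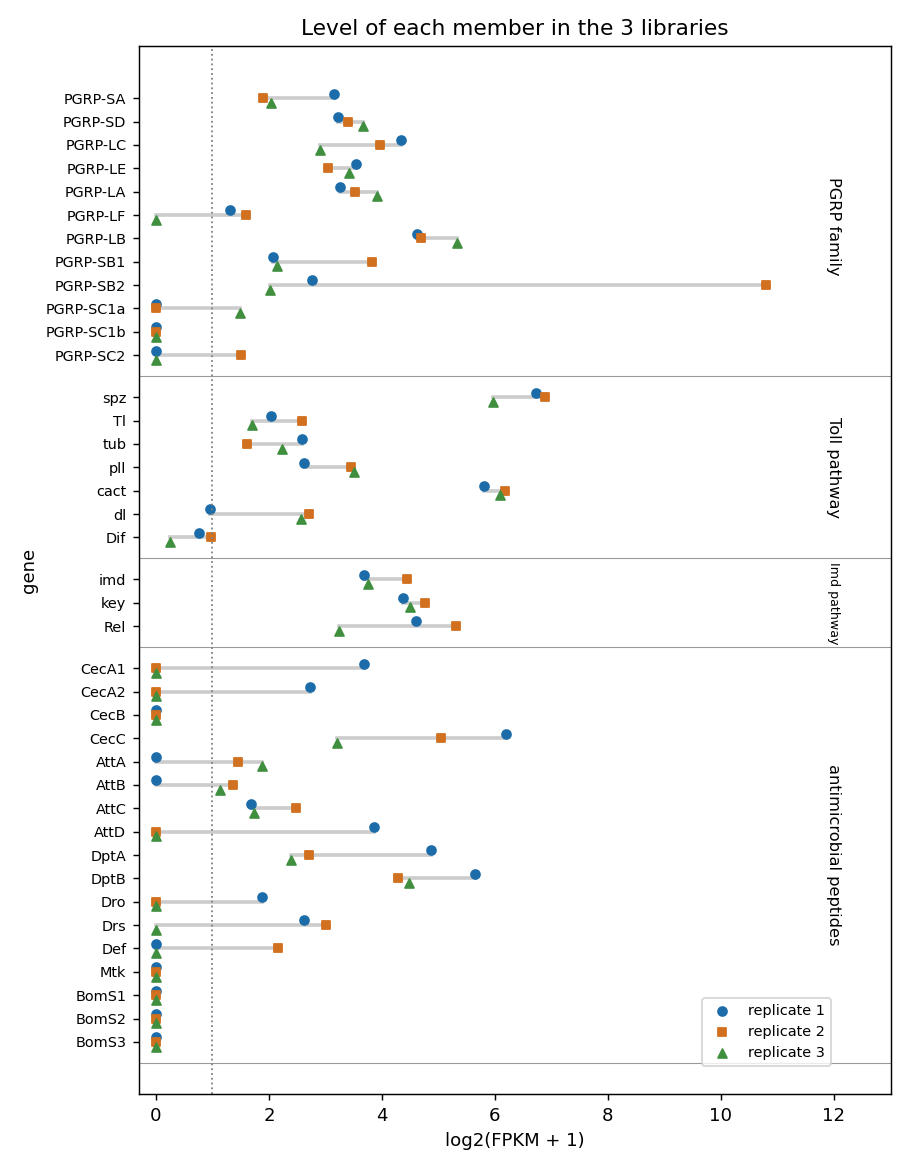
The level of each of the 39 members is plotted on the log2(FPKM + 1) axis, with 1 symbol per library (circles for replicate 1, squares for replicate 2, triangles for replicate 3) and a grey bar from the lowest to the highest library. The dotted line marks 1 FPKM. spz and cact stand above all other members, except that CecC lies above cact in replicate 1 and PGRP-SB2 above both in replicate 2 and has the widest range, and 6 genes lie at 0 in every library.

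Among the sensing PGRPs, which bind peptidoglycan or modulate its receptors, 5 of 6 were detected. PGRP-LC (FBgn0035976, BDGP6.54 chromosome arm 3L, 9338810 to 9348336, plus strand), the main membrane receptor of the Imd pathway, had 19.2, 14.7 and 6.50 FPKM in replicates 1, 2 and 3, from 36, 40 and 23 fragments. Replicate 3 was the lowest, and its 95% exact Poisson interval of 4.12 to 9.75 FPKM lay below those of replicate 1 (13.5 to 26.6) and replicate 2 (10.5 to 20.0). These intervals cover counting error only. The annotation gives PGRP-LC 10 transcripts, which code receptors with different outer domains, and the gene values do not separate them.

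PGRP-LE (FBgn0030695, X, 15801153 to 15803880, minus strand), which senses DAP-type fragments inside cells, had 10.6, 7.29 and 9.69 FPKM. PGRP-LA (FBgn0035975), a family member known as a positive modulator of the Imd pathway in airway epithelia, had 8.59, 10.5 and 14.1 FPKM. In the deposited values both varied little between libraries, with SDs of 1.71 around a mean of 9.20 for PGRP-LE and of 2.81 around 11.1 for PGRP-LA (n = 3 each). For PGRP-LA this depended on the scaling. Rescaled to an equal sum per library (TPM), it had 3.14, 5.56 and 8.29. PGRP-LF (FBgn0035977), which lacks a signalling tail and blocks PGRP-LC, had 1.48 and 2.03 FPKM in replicates 1 and 2 and 0 in replicate 3, a count that leaves room for up to 2.34 FPKM. Its values rest on 3 fragments in all. PGRP-LA, PGRP-LC and PGRP-LF lie in a row on 3L on the same strand, 473 bases and 1272 bases apart. Within this cluster PGRP-LA and PGRP-LC had similar means (11.1 and 13.5 FPKM) and PGRP-LF was lower (1.17 FPKM). PGRP-LF shares 44.4% of its exon bases with UGP on the opposite strand, which had 57.8, 49.7 and 67.7 FPKM. The name of the deposited table marks its counting as unstranded, so how fragments in the shared bases were assigned is not known.

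The secreted sensors of the Toll branch were also present. PGRP-SA (FBgn0030310, X, 11561643 to 11562779), the receptor for lysine-type peptidoglycan in the hemolymph, had 7.86, 2.70 and 3.12 FPKM from 4, 2 and 3 fragments. PGRP-SD (FBgn0035806, 3L, 7651180 to 7651900), which acts beside it, had 8.32, 9.53 and 11.7 FPKM from 3, 5 and 8 fragments. The ratio of replicate 1 to replicate 3 for PGRP-SA was 2.52 with an exact interval of 0.427 to 17.2, so no difference between libraries was detectable at this depth.

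PGRP-LB was the leading amidase gene in replicates 1 and 3. PGRP-LB (FBgn0037906, 3R, 11452849 to 11460552, minus strand) removes DAP-type peptidoglycan and lowers Imd signalling. It had 23.7, 24.8 and 39.3 FPKM, from 21, 32 and 66 fragments, and its mean of 29.3 ± 8.73 (SD, n = 3) was the second highest of the PGRP family. Replicate 3 was the highest for PGRP-LB and the lowest for PGRP-LC. PGRP-LB exceeded PGRP-LC in all 3 libraries, by 0.29, 0.72 and 2.43 on the log2(FPKM + 1) scale, a mean of 1.14 ± 1.13 (SD, n = 3). The gene-length-corrected ratio of fragments over all libraries was 2.53, with an exact 95% interval of 1.93 to 3.34. The two-sided exact sign-flip permutation test gave p = 0.25, the smallest value that 3 libraries allow, and 0.3 after Benjamini-Hochberg adjustment over the 6 pairs of members compared. PGRP-LC minus PGRP-LE was 0.40 ± 0.79 (SD, n = 3), positive in 2 of 3 libraries, with a ratio of 1.34 (0.920 to 1.97) and an exact sign-flip p of 0.5 (adjusted 0.5). No difference between the membrane and the intracellular receptor gene was detectable.

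The short amidase genes of the gut type had almost no fragments. PGRP-SC1a (FBgn0043576), PGRP-SC1b (FBgn0033327) and PGRP-SC2 (FBgn0043575), known as peptidoglycan scavengers of the midgut, had 1 fragment, 0 fragments and 1 fragment over all libraries. A count of 0 allows PGRP-SC1b up to 3.64, 2.50 and 1.92 FPKM in replicates 1, 2 and 3. The midgut markers were likewise at or near 0. PGRP-SC1a and PGRP-SC1b are near-identical copies, so reads shared between them may not have been counted.

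PGRP-SB2 had a level in 1 library that no other member approached. PGRP-SB2 (FBgn0043577, 3L, 16726541 to 16727288, plus strand), a secreted family member with predicted amidase residues, had 5.82, 1778 and 3.07 FPKM in replicates 1, 2 and 3. These values rest on 2, 890 and 2 fragments. Replicates 1 and 3 were low and close to each other, and replicate 2 stood apart. The ratio of replicate 2 to replicate 3 was 578, with an exact interval of 160 to 4784, and that of replicate 1 to replicate 2 was 0.00327 (0.000395 to 0.0118). On the log2(FPKM + 1) scale, replicate 2 exceeded the higher of the other libraries by 8.03, and 6 of the 17278 genes had a larger excess. The mean of 596 ± 1024 FPKM (SD, n = 3) therefore describes none of the libraries, and without replicate 2 it was 4.44 FPKM.

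The neighbour PGRP-SB1 (FBgn0043578, 3L, 16727299 to 16727989, minus strand), an amidase that can kill bacteria, lies 10 bases beyond PGRP-SB2 on the opposite strand. It had 3.21, 13.2 and 3.40 FPKM from 1, 6 and 2 fragments. Replicate 2 was the highest, as for PGRP-SB2, and the ratio of replicate 2 to replicate 3 was 3.90 with an interval of 0.697 to 39.5. On the other side, CG13026, 371 bases away, had 0, 15.4 and 0 FPKM from 16 fragments in replicate 2. CG13031, which lies within the span of CG13026 on the opposite strand, was listed at 0 in all libraries. Beyond PGRP-SB1, Dbp73D did not share the pattern, with 2.72, 0.622 and 1.44 FPKM. Genes beyond CG13026 were not examined. An excess of at least 1 log2 unit in replicate 2 over both other libraries was seen for 4.92% of all genes and for 4 of the 39 members, namely PGRP-SB1, PGRP-SB2, PGRP-SC2 and Def. PGRP-SC2 and Def rest on 1 fragment each.

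**Figure D2:**
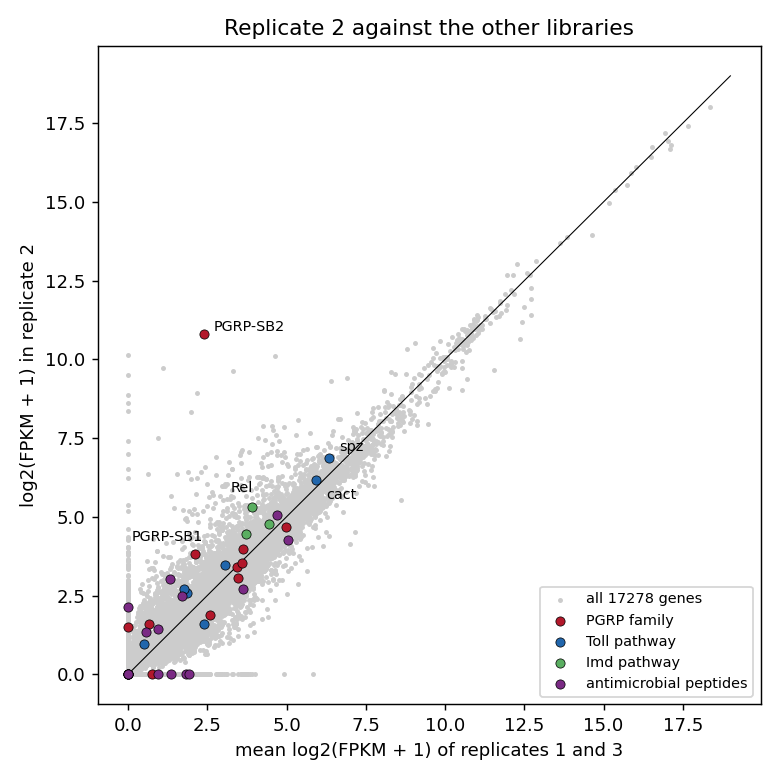
Each point is a gene, with its mean log2(FPKM + 1) in replicates 1 and 3 on the horizontal axis and its log2(FPKM + 1) in replicate 2 on the vertical axis; grey points are all 17278 genes, coloured points are the members by group, and the line marks equal levels. Most members lie within the cloud of all genes. PGRP-SB2, at 1778 FPKM in replicate 2, lies far above the line, as do the 6 genes with a larger excess in replicate 2.

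In the Toll pathway, the ligand gene and the inhibitor gene were the highest members and the other parts were low. spz (FBgn0003495, 3R, 27064990 to 27070070, minus strand) encodes Spätzle, the ligand that proteases must cut before it binds Toll. It had 105, 117 and 61.7 FPKM from 124, 201 and 138 fragments, a mean of 94.5 ± 29.0 (SD, n = 3) that ranked 540 among all genes. Replicate 3 was lower than the others. The ratio of replicate 1 to replicate 3 was 1.70 (exact interval 1.32 to 2.18), and that of replicate 2 to replicate 3 was 1.89 (1.52 to 2.37). The gap between replicates 1 and 3 depended on the scaling. Rescaled to an equal sum per library (TPM), spz had 38.4, 61.9 and 36.3, and with an equal sum outside rRNA pseudogenes it had 70.3, 93.9 and 44.4. Rescaled by median ratios, it had 103, 119.9 and 60.2. The neighbours of spz were low. Nep5 had at most 1 fragment per library, CG34292 was listed at 0, and CG43935, which lies inside spz on the opposite strand, had at most 1 fragment.

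cact (FBgn0000250, 2L, 16313036 to 16326207, minus strand) encodes Cactus, the IκB protein that holds Dorsal and Dif in the cytoplasm. It had 54.8, 71.5 and 66.8 FPKM from 91, 173 and 210 fragments. The spread was small for a member (64.4 ± 8.65, SD, n = 3), and the gene ranked 762 among all genes. The NF-κB factor genes of the pathway were far lower. dl (FBgn0260632, 2L, 17436830 to 17450364) had 0.933, 5.56 and 4.93 FPKM from 3, 26 and 30 fragments. Replicate 1 was low, with a ratio to replicate 3 of 0.189 (0.0369 to 0.608). Dif (FBgn0011274), which lies 3668 bases from dl on the same strand, had 0.703, 0.966 and 0.186 FPKM from 7 fragments in all.

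cact exceeded dl in all 3 libraries, by 4.85, 3.47 and 3.51 on the log2(FPKM + 1) scale. The mean was 3.94 ± 0.79 (SD, n = 3), and the length-corrected ratio of fragments was 15.5 (exact interval 11.8 to 20.7). dl exceeded Dif by 0.18, 1.74 and 2.32, a mean of 1.41 ± 1.11, with a ratio of 7.46 (3.40 to 19.4). The exact sign-flip permutation test gave p = 0.25 and an adjusted p of 0.3 for both pairs, the lowest p that 3 libraries allow. In the deposited values, the inhibitor gene thus stood above both factor genes in every library.

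The receptor and its proximal relay were low but present. Tl (FBgn0262473, 3R, 26799041 to 26842403), the Toll receptor gene, had 3.08, 5.02 and 2.24 FPKM from 8, 19 and 11 fragments. tub (FBgn0003882), whose product links Toll and Myd88 to the kinase, had 4.99, 2.06 and 3.69 FPKM. pll (FBgn0010441), which encodes the kinase Pelle, had 5.18, 9.97 and 10.4 FPKM. pll minus tub was 0.05, 1.84 and 1.28 on the log2(FPKM + 1) scale, a mean of 1.06 ± 0.92 (SD, n = 3) with an exact sign-flip p of 0.25 (adjusted 0.3). The ratio of pll to tub fragments per exon base was 2.63 (1.41 to 5.15).

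All members of the Imd pathway were detected, at levels above most Toll pathway genes. imd (FBgn0013983, 2R, 18409796 to 18413599), the death-domain adaptor, had 11.9, 20.8 and 12.5 FPKM. key (FBgn0041205, 2R, 24785514 to 24787411), the regulatory subunit of the IκB kinase complex, had 19.7, 26.1 and 21.6 FPKM. Rel (FBgn0014018, 3R, 9044183 to 9047977, minus strand), the NF-κB factor Relish, had 23.4, 38.5 and 8.46 FPKM from 41, 98 and 28 fragments. Replicate 2 was the highest for all 3 genes. For imd and key the differences were within counting error, with ratios of replicate 2 to replicate 3 of 1.66 (0.858 to 3.27) and 1.21 (0.689 to 2.12). For Rel that ratio was 4.55 (2.96 to 7.19), and replicate 1 to replicate 3 was 2.77 (1.67 to 4.65).

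Rel exceeded dl by 3.66, 2.59 and 0.67 on the log2(FPKM + 1) scale, a mean of 2.31 ± 1.51 (SD, n = 3), in 3 of 3 libraries. The ratio of fragments per exon base was 5.20 (exact interval 3.85 to 7.13), and the exact sign-flip permutation test gave p = 0.25 (adjusted 0.3). The Imd factor gene was therefore above both Toll factor genes in each library, with the smallest gap to dl in replicate 3.

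Other genes of the same pathways were taken from wider lists. Of 20 further Imd signalling genes, 18 were detected, led by the ubiquitin-conjugating enzyme genes eff (97.1 ± 11.9 FPKM), ben (69.8 ± 2.33) and Uev1A (61.8 ± 22.4; SD, n = 3 each). These enzymes serve many processes. Of 20 further Toll signalling genes, 10 were detected, led by the SUMO-conjugating enzyme gene lwr (87.3 ± 17.2), Sumo (79.7 ± 48.3) and the adaptor gene Myd88 (28.9 ± 7.87). Those not detected were all further ligand and receptor genes of the spz and Toll families. Of 12 genes that act upstream of Spätzle, 4 were detected, led by spirit (11.6 ± 5.22), GNBP3 (9.50 ± 1.97) and nec (7.50 ± 3.57). Of 9 JAK-STAT genes, 5 were detected, led by Stat92E (17.1 ± 4.71), dome (13.6 ± 6.83) and hop (10.9 ± 2.60), and the ligand genes upd1 and upd2 were listed at 0. These counts stand against the same 33.1% of all genes and 40.1% of the protein-coding genes. The 4 of 12 upstream of Spätzle lie near the share of all genes.

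pirk, a target of Relish that sequesters PGRP-LC and dampens the Imd pathway, varied most within the Imd list and was chosen after its values were seen. It had 37.9, 105 and 1.15 FPKM from 35, 141 and 2 fragments. The order of libraries was that of Rel, with replicate 2 highest and replicate 3 lowest. This order held for both genes as TPM, where pirk had 13.9, 55.6 and 0.673 and Rel had 8.57, 20.4 and 4.97. It is not particular to them. In the deposited values spz, LysP and the fat body marker Fbp1 had the same order, whereas the peptide genes CecC, DptA and DptB were highest in replicate 1. A link between the levels of Rel and pirk was not tested.

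Antimicrobial peptide genes had the lowest median and rested on 87 fragments in all. The cecropins, short helical peptides that break bacterial membranes, were represented almost wholly by CecC. CecC (FBgn0000279, 3R, 30216484 to 30216938) had 72.6, 32.1 and 8.22 FPKM from 14, 9 and 3 fragments. CecA1 (FBgn0000276) had 11.8 FPKM from 2 fragments and CecA2 (FBgn0000277) 5.64 FPKM from 1 fragment in replicate 1, and both were listed at 0 in the other libraries. CecB was listed at 0 throughout. These genes lie side by side on 3R, with CecB 2686 bases from CecC. Pooled over libraries, CecC had 31.0 FPKM (95% exact Poisson interval 20.2 to 45.4), against 2.72 (0.329 to 9.81) for CecA1 and at most 3.25 FPKM for CecB by the limit that a count of 0 allows. CecA1 and CecA2 are near-identical copies, so their values are uncertain.

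The diptericin genes, classical targets of the Imd pathway, were the only other peptide members with more than 6 fragments. DptB (FBgn0034407, 2R, 18867391 to 18867895) had 49.0, 18.4 and 21.2 FPKM from 11, 6 and 9 fragments. DptA (FBgn0004240, 2R, 18865765 to 18866260), 1130 bases away, had 28.2, 5.54 and 4.26 FPKM from 7, 2 and 2 fragments. Replicate 1 was the highest for both. The ratio of replicate 1 to replicate 3 was 6.62 (exact interval 1.26 to 65.3) for DptA and 2.31 (0.871 to 6.31) for DptB. These ratios and intervals use the deposited divisors. As TPM the gaps were smaller, with 10.3, 2.94 and 2.50 for DptA and 17.9, 9.73 and 12.4 for DptB.

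The attacins, glycine-rich peptides against Gram-negative bacteria, were low. AttC (FBgn0041579) had 2.22, 4.58 and 2.35 FPKM, and AttA (FBgn0012042) and AttB (FBgn0041581), another near-identical pair, had 3 and 2 fragments in all. AttD (FBgn0038530) differed from these in its pattern, with 13.5 FPKM from 5 fragments in replicate 1 and none in the others. Dro (drosocin) and Def (defensin) rested on 1 fragment each. Drs, the antifungal drosomycin gene and the usual readout of Toll, had 5.17 and 7.10 FPKM in replicates 1 and 2, from 3 fragments, and was listed at 0 in replicate 3.

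Mtk, the gene of the antifungal peptide metchnikowin, and the bomanin genes BomS1, BomS2 and BomS3, which are induced through Toll, gave no fragment in any library. Over the 3 libraries together, a count of 0 allows up to 5.15 FPKM for Mtk, 3.82 for BomS1, 3.76 for BomS2 and 1.80 for BomS3. These limits lie below the pooled lower bounds of CecC and of DptB, which cover counting error only. In replicate 3 alone, the lower bound was 1.70 FPKM for CecC and 9.69 for DptB, below the limit of 11.8 for Mtk. They do not show that the genes are silent.

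**Figure D3:**
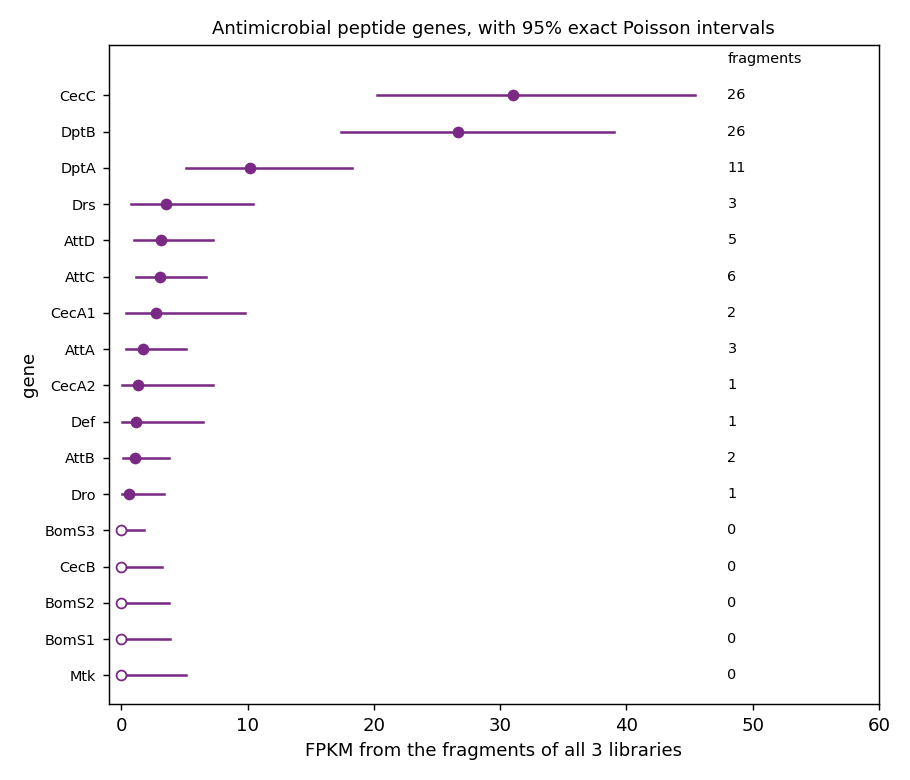
FPKM from the fragments of all 3 libraries together, for each antimicrobial peptide gene, with 95% exact Poisson intervals; open circles are genes with no fragment, whose bars reach the level that a count of 0 allows (3 fragments), and the numbers at the right are fragments. The intervals of CecC and DptB, with 26 fragments each, lie above those of all other genes, except that the interval of DptB meets that of DptA. All intervals cover counting error only and not the differences between libraries.

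Summed over the group, antimicrobial peptide fragments differed between libraries. They made up 43 of 678714 fragments outside rRNA pseudogenes in replicate 1, which is 63.4 per 1000000 (95% Wilson interval 47.0 to 85.3). In replicate 2 they were 28.6 per 1000000 (19.4 to 42.2) and in replicate 3 they were 16.0 per 1000000 (10.3 to 25.0). The interval of replicate 1 did not overlap those of the other libraries, and those of replicates 2 and 3 overlapped each other. Without CecC they were 42.7 per 1000000 (29.8 to 61.4) in replicate 1, 18.3 per 1000000 (11.3 to 29.7) in replicate 2 and 13.5 per 1000000 (8.31 to 21.9) in replicate 3, and the intervals of replicates 1 and 2 then almost touched. A higher level in replicate 1 than in replicate 3 by at least 1 log2 unit was found for 8 of the 17 genes (47.1%), against 6.29% of all genes, and a lower one for 2 genes (AttA and AttB), against 7.95% of all genes. Of these 8, only CecC, DptA, DptB and AttD had 5 or more fragments. For genes this short, 1 fragment in replicate 1 against none in replicate 3 passes 1 log2 unit, as for CecA2 and Dro. The share over all genes includes longer genes and the 41.5% at 0 in every library, so the 2 shares are not alike. As TPM, the gap was 0.49 for DptB, 0.98 for Dro and -0.77 for AttB, each short of 1 log2 unit.

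In the same libraries the fat body markers summed to 2903, 4129 and 4319 FPKM, the hemocyte markers to 22.1, 50.0 and 31.7 FPKM and the tracheal markers to 33.6, 34.7 and 21.6 FPKM, and rRNA pseudogenes held 55.0%, 41.4% and 24.6% of fragments. The part of these in the antimicrobial peptide values was not tested. Single fat body markers did not share 1 order of libraries. Lsp1gamma had 557, 798 and 1331 FPKM, whereas Fbp1 had 1037, 1468 and 272 FPKM. In these bulk libraries, fewer cells of a type and less RNA per cell cannot be told apart.

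The other groups did not share the order of the peptide genes. Toll pathway genes made up 351, 503 and 351 fragments per 1000000 in replicates 1, 2 and 3, and Imd pathway genes 94.3 (73.9 to 120), 169 (144 to 199) and 63.3 (50.5 to 79.3). PGRP genes without PGRP-SB2 were even across libraries, at 127, 132 and 127 per 1000000, and with it replicate 2 had 1150 (1081 to 1223). Replicate 2 was thus the highest for both signalling groups, and replicate 1 for the summed antimicrobial peptide members. Of the 12 peptide genes above 0 in any library, 7 were highest in replicate 1, 4 in replicate 2 and 1 in replicate 3. Further effector genes, described below, summed to 5731, 6900 and 3974 FPKM and were thus highest in replicate 2.

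**Figure D4:**
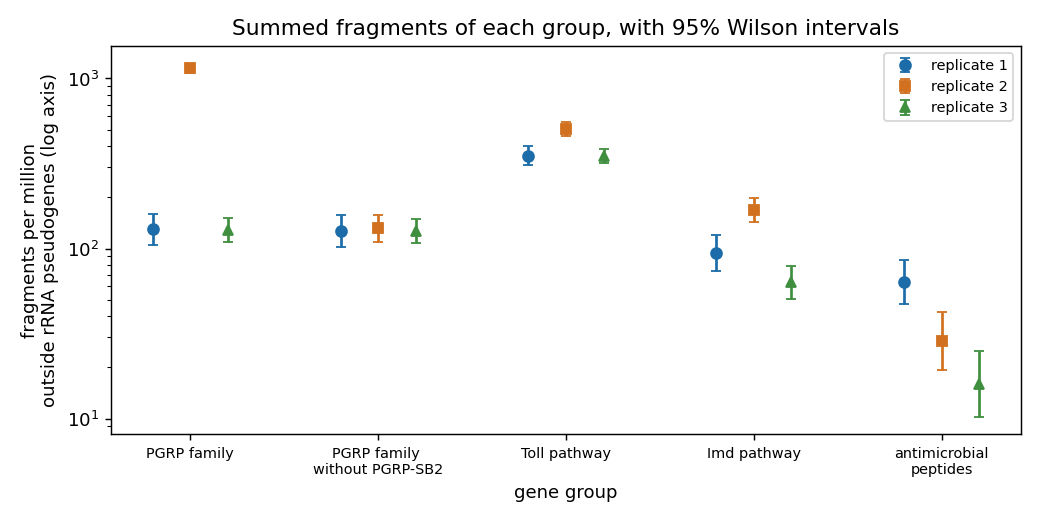
The share of each group among the fragments outside rRNA pseudogenes is plotted on a log axis, with 1 symbol per library and 95% Wilson intervals. The PGRP genes without PGRP-SB2 are level across libraries (127, 132 and 127 per 1000000), the Toll and Imd genes are highest in replicate 2, and the antimicrobial peptide genes are highest in replicate 1.

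Across all detected members, levels ran from spz to AttC, and the spread between libraries blurred most of the order between. When the 20 detected members were ranked by mean log2(FPKM + 1), each was set against the next within libraries. Only 1 of the 19 neighbouring pairs differed by more than 1 SD, PGRP-LA over PGRP-SD by 0.14 ± 0.10 (SD, n = 3). The SD of log2(FPKM + 1) over libraries had a median of 0.69 over the 39 members and 0.21 over all genes, many of which were at 0 throughout. Among genes with a mean of at least 1 FPKM, the median was 0.74 for members and 0.45 for all genes.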

How the data were processed

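The deposited values are FPKM, 1 per gene and library, made by the authors from poly(A) RNA libraries of a directional kit. HISAT2 and DESeq are named without versions or roles, per the submitters' processing notes. Which genome build, annotation and counting program they used is not given in the sources used here. Coordinates, exon lengths and symbols are from Ensembl BDGP6.54, release 115, which held 17142 of the 17278 identifiers. Each FPKM value times exon length was a whole multiple of 1 step per library, within 0.01, for 98.7% to 98.8% of values above 0, and for every member. Fragments so recovered gave depth, Poisson, Wilson and exact binomial intervals at 95% and the limit of 3 fragments for a count of 0; no count model was fitted. The recovery was tested on simulated data. Levels were compared as log2(FPKM + 1), which understates ratios of low genes. The 6 member pairs were tested by exact sign-flip within libraries.

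The members and lists were chosen with earlier results of these data known. Named were all members, the 3 highest of each related list and the 2 highest of each marker list; other genes were named after their values were seen, among them neighbours of members, genes at the low end of lists and those high in replicate 2. Listed names without a single match (weck, 18w, spheroide, BaraA2, nos) were left out. Transcript and protein sequences were not used here. The software was scipy 1.17.1, pandas 2.3.3, numpy 2.4.6 and matplotlib 3.10.9 under Python 3.11.15.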

Additional observations from a re-analysis of the deposited data

How the results depend on the processing

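The counts of detected members stayed within 1.5 times of the reported ones under limits of 0.5 and 2 FPKM, under a minimum of 5 fragments and without each replicate, where they ran from 20 to 23 for all members, 8 to 9 for PGRP, 5 to 6 for Toll and 4 to 6 for antimicrobial peptide genes, and stayed at 3 for Imd genes. The 6 pair differences kept their direction under every alternative run; PGRP-LC minus PGRP-LE ran from 0.14 to 0.86 without each replicate, dl minus Dif from 0.96 to 2.03, PGRP-LB minus PGRP-LC from 0.50 to 1.57, Rel minus dl from 1.63 to 3.13, cact minus dl from 3.49 to 4.18 and pll minus tub from 0.66 to 1.56.

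Median levels depended on the scale. With a pseudocount of 0.1 they were 1.63 for all members, 1.79 for Toll and -1.02 for antimicrobial peptide genes. As TPM they were 1.39 for all members, 2.17 for PGRP, 1.46 for Toll and 3.42 for Imd genes. Among members of at least 1 FPKM on average they were 3.26 for all members and 2.67 for Toll genes. Without each replicate the Toll median ran from 2.31 to 2.64, above the reported 2.14, and that of the antimicrobial peptide genes from 0.0 (without replicate 1) to 1.08, against the reported 0.91.

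The median of replicate 1 minus replicate 3 was 0.33 for Toll, -0.07 for Imd and 0.0 for PGRP, antimicrobial peptide and all 39 genes. For Toll it was 0.42 with a pseudocount of 0.1, 0.23 with an equal sum outside rRNA pseudogenes, and -0.17 as TPM, and for Imd it was -0.65 as TPM. TPM and the scaling by median ratios were chosen for this quantity, and the removal of PGRP-SB2, after seeing the data. TPM moved the same median over the 6504 genes above 0 in every library to -0.51, against -0.02 in the deposited values. No paired analysis was possible because there is no second group of samples to match by replicate number; the gene pairs were compared within libraries. Depth limits the antimicrobial peptide genes most, since 87 fragments carry 17 genes.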

Other observations

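The effector list beyond the members held genes far above any antimicrobial peptide. Of 46 further effector genes, 6 were detected, against 33.1% of all genes, and 28 were listed at 0 in every library, against 41.5% of all genes, among them the further bomanin, Daisho and Baramicin genes that were matched. LysP, which encodes a lysozyme, had 5566, 6536 and 3647 FPKM in replicates 1, 2 and 3, from 1711, 2924 and 2121 fragments. The stress gene TotA had 117, 259 and 237 FPKM from 34, 109 and 130 fragments, while TotB, TotM and TotX were listed at 0. Of the drosomycin-like genes, Drsl1 had 9.53, 26.2 and 30.2 FPKM, Drsl5 had 5.50, 49.1 and 0, and Drsl3, Drsl4 and Drsl6 were listed at 0. Some lysozyme genes have near-identical copies. Whether LysP shares reads with other lysozyme genes was not computed, and LysB, LysC, LysD and LysE averaged 0.750, 0.0, 2.34 and 3.70 FPKM.

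Of 14 thioester protein and scavenger receptor genes, 6 were detected, near the 40.1% of protein-coding genes, led by Tep2 (30.4 ± 41.9 FPKM), NimC2 (21.6 ± 14.8) and the engulfment receptor gene drpr (17.6 ± 3.08; SD, n = 3 each). Tep2 had 8.70, 78.8 and 3.80 FPKM, highest in replicate 2.

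Replicate 2 also held other genes with a pattern like that of PGRP-SB2. Of the protein-coding genes, 6 had a larger excess in replicate 2, namely CG32762 (0, 1114 and 0 FPKM in replicates 1, 2 and 3), CG45081 (0, 720 and 0), Eig71Ec (0, 469 and 0), CG42717 (0, 391 and 0), CG4151 (1.53, 846 and 0.809) and Eig71Ef (0, 331 and 0). Eig71Ec and Eig71Ef belong to the ecdysone-induced late puff genes on 3L.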
